A study of Mus musculus with 14 samples.

Results

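The contact profile of Dppa2 and Dppa4 was read from the 3 bins of 10 kb that their gene bodies overlap on mouse chromosome 16 (mm10). Dppa4 lies at 48283735 to 48294292 and overlaps the bins starting at 48280001 and 48290001. Dppa2 lies at 48310274 to 48319513, 15981 bp further right, inside the bin starting at 48310001. These 3 bins are 0.561% of the bins that tile 5.35 Mb from 45520001 to 50870000, and their contacts with every bin at least 20 kb away were examined. The members were chosen by position and not by any contact value.

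The series looked for DNA elements that control when and where replication occurs, and used capture Hi-C around these genes. Hi-C joins DNA ends that lie near each other in the nucleus, and the capture step keeps read pairs from one interval. The 2 matrices came from untreated mouse embryonic stem cells (mESC) and from mESC after 2 days of auxin, each combined from replicates that cannot be separated here. Auxin is used to deplete a protein that carries an auxin-inducible degron tag; the labels name no tagged protein, so the sources used here do not say what was depleted. The labels describe 14 samples in 10 groups (680kinv, 145k.del, 100k.del, 18k.del, abc.del, bc.del, ab.del, c.del, NPC and mESC), grown from a Cas/129 hybrid line in 2i and LIF. None of these labels names an untreated or auxin-treated sample, so genotype and clone of the cells behind the matrices are not given. Contact data hold no transcripts, so the cell type could not be checked against marker genes.

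Dppa2 and Dppa4 encode a pair of related proteins with a SAP domain, a DNA-binding fold, that act together on chromatin in pluripotent cells, the early embryo and the germline. In mouse ES cells they are known as activators of genes of early zygotic transcription and as factors that keep some developmental promoters free of DNA methylation. The domain that holds them is known to replicate early in ES cells and later in neural precursor cells. In Hi-C maps, chromatin is partitioned into domains within which contact is frequent, and domains of like activity also touch over long distances.

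The table of RefSeq promoters used (build GRCm38.p6, with mm10 coordinates) matched 22 of the 28 protein-coding genes of the interval; Dppa2 and Dppa4 are not among them. The 250 bases before the start that this table gives are shown for Nectin3, Cip2a and Myh15. The Nectin3 start bin had the highest contact with the genes among bins with at least 3 expected pairs. Cip2a and Myh15 are 2 of the genes whose contact rose. The gene bodies used below begin further upstream for Nectin3 and Cip2a, so the Nectin3 stretch lies within its gene body and the end of the Cip2a stretch within its own. The stretches shown are reference sequence and may differ from the alleles of the cells measured, whose genotype is not given. The Nectin3 stretch is chr16:46496968-46497217 on the minus strand, that of Cip2a is chr16:48993938-48994187 on the plus strand, and that of Myh15 is chr16:49057150-49057399 on the plus strand. Each is written 5′ to 3′ on the gene's strand, with the dinucleotide CG, which reads the same on both strands, in capitals.
Nectin3: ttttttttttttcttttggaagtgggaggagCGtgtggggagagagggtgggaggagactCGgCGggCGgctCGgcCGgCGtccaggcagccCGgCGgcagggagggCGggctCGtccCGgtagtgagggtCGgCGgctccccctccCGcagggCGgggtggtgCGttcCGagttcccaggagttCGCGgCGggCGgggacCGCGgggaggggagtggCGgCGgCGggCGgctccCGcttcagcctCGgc
Cip2a: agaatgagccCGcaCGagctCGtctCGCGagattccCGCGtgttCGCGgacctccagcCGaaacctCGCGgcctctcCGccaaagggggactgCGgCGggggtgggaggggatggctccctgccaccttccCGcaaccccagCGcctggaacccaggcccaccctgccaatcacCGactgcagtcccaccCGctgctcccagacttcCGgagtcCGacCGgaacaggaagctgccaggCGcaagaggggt
Myh15: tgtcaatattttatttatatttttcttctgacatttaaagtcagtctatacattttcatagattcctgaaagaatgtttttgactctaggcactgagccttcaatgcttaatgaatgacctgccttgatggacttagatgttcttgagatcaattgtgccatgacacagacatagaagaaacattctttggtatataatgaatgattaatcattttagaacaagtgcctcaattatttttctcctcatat
The Nectin3 stretch holds 30 CG, and 5.94% of 32851 RefSeq promoter stretches of the same length hold at least as many. The Cip2a stretch holds 23 CG, and 13.3% of promoters hold at least as many. The Myh15 stretch holds 0 CG, against a median of 6 over all promoters. GATC, the letters MboI cuts, occurs once in the Myh15 stretch and in neither of the others, and in 41.9% of all promoter stretches.

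Each deposited value is a whole number of read pairs multiplied by a factor for each of its 2 bins, so the read pairs could be recovered. The untreated matrix held 439849 pairs and the auxin matrix 433895, and 376400 and 372484 of these spanned 20 kb or more. Bins held between 14 and 4348 pairs, with a median of 1542 untreated and 1532 in auxin, and the same 18 bins held under 100 in both. The first Dppa4 bin held 2528 pairs untreated and 2621 in auxin. The second held 2351 and 2647, and the Dppa2 bin 1793 and 2002. All 3 bins were thus covered more deeply than the median bin of either matrix.

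Contact is given as observed over expected contact, the summed values over the sum of the mean values at the same distances in the same matrix, so that 1 is the average of the interval at that distance. With 1 pooled matrix per condition there are no replicates to compare, so no test between conditions is possible and the differences below compare these libraries and not the conditions. Brackets hold 95% intervals from the number of read pairs, which cover counting error only and are not adjusted for the number of comparisons. "Rose" and "fell" are used where the interval of the log2 ratio of auxin over untreated contact excluded 0.

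The genes touched each other more often than the average of bins at their distance. The second Dppa4 bin and the Dppa2 bin, 20 kb apart, had a contact of 1.89 (1.53 to 2.31) untreated on 97 pairs and 1.76 (1.42 to 2.17) in auxin on 91. The first Dppa4 bin and the Dppa2 bin, 30 kb apart, gave 1.72 (1.34 to 2.17) on 70 pairs and 1.67 (1.29 to 2.13) on 65. The adjacent Dppa4 bins gave 1.16 (0.978 to 1.37) and 1.23 (1.04 to 1.45). Contact between the genes was thus above the interval's average in both matrices, and the log2 ratio between matrices was -0.10 (-0.53 to 0.33) at 20 kb and -0.04 (-0.55 to 0.47) at 30 kb. This was not particular to the gene bins. The bin between the genes, without a gene body, had 1.69 (1.39 to 2.03) untreated with the first Dppa4 bin at 20 kb. In auxin that pair had 1.44 (1.15 to 1.79).

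Further out, the untreated profile of the 54 windows of 100 kb had high contact at both a near and a distant place, with a low stretch on the right. Of the 8 high windows, 6 lay between the left end of the interval and the gene-free window next to Nectin3 at 46.52 to 46.62 Mb, 1 in Morc1, the next gene to the right, and 1 at Ccdc54 near the right end. Contact was lowest from Myh15 to Ift57. Of the 54 windows, 8 (14.8%) were at least 1.5 times the expected contact and 18 (33.3%) at most 1/1.5 of it. Over all sets of 3 bins of the same shape in the interval, 13.2% and 23.6% of windows passed these limits, so high windows were about as frequent as for any bait and low ones more frequent. The median window stood at 0.753.

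The 5 windows with the highest untreated contact all lay on the left. Highest was 46.42 to 46.52 Mb, which holds the first part of Nectin3, a gene for an immunoglobulin-like cell adhesion molecule, at 3.29 (2.80 to 3.85), against 1.88 (1.51 to 2.32) in auxin. At 45.72 to 45.82 Mb, with Abhd10, a mitochondrial thioesterase gene, and parts of Tagln3 and Phldb2, contact was 2.26 (1.64 to 3.04), against 1.63 (1.16 to 2.23). At 45.92 to 46.02 Mb, with parts of Phldb2, a phosphoinositide-binding protein gene, and Plcxd2, a phospholipase C domain gene, it was 2.19 (1.56 to 2.99), against 1.31 (0.929 to 1.78). The window next to Nectin3 at 46.52 to 46.62 Mb, without a protein-coding gene, had 1.89 (1.42 to 2.45) and 1.19 (0.864 to 1.61). The one at 46.02 to 46.12 Mb with Cd96, which encodes a receptor of T and NK cells, had 1.85 (1.19 to 2.74) and 1.10 (0.749 to 1.56). These windows were named by their untreated value, so a lower auxin value in them is not an independent observation.

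The 5 lowest untreated windows all lay on the right. Contact was 0.232 (0.113 to 0.422) on 13 pairs at 49.22 to 49.32 Mb, a window free of protein-coding genes, against 0.565 (0.358 to 0.848) in auxin on 47. The last window of the interval, from 50.82 Mb, had 0.282 (0.052 to 0.866) on 3 pairs and 0.631 (0.263 to 1.27) on 8. At 49.12 to 49.22 Mb, inside Myh15, a myosin heavy chain gene, contact was 0.315 (0.214 to 0.447) and 0.571 (0.439 to 0.729). At 49.62 to 49.72 Mb, with part of Ift57, a gene for intraflagellar transport in cilia, it was 0.325 (0.198 to 0.504) and 0.537 (0.365 to 0.762). At 49.32 to 49.42 Mb, with the predicted gene Gm4802, it was 0.340 (0.222 to 0.499) and 0.438 (0.304 to 0.611). All 8 windows from 49.02 to 49.82 Mb were below 0.5 untreated, with a highest value of 0.466. The 5 lowest windows were named by their untreated value, so a higher auxin value in them is not an independent observation.

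**Figure D1:**
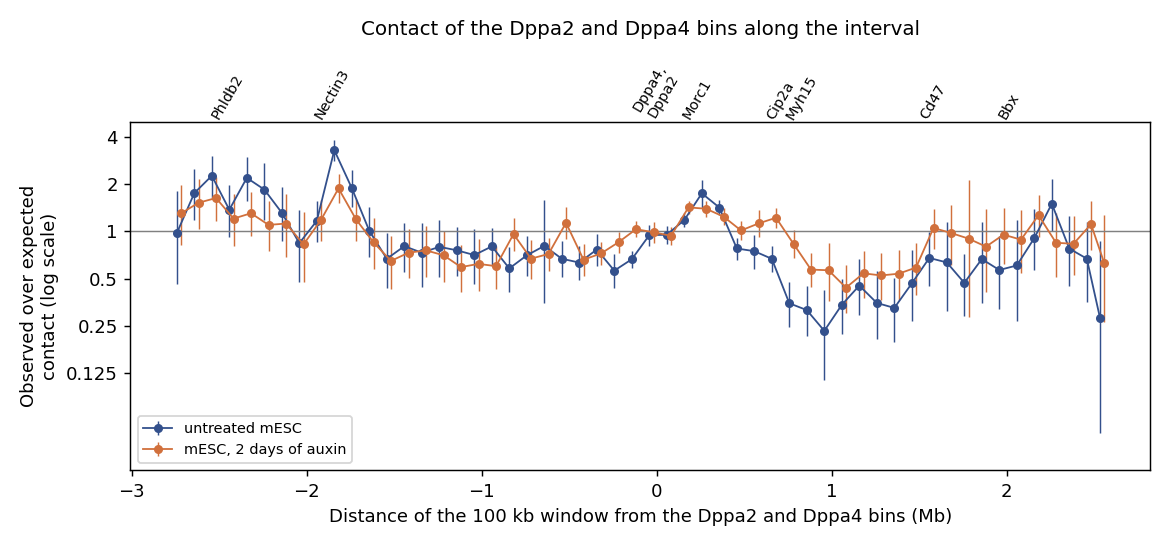
Observed over expected contact (log axis) of the Dppa2 and Dppa4 bins with each 100 kb window, by distance from the 2 genes in Mb, in untreated mESC (blue) and in mESC after 2 days of auxin (orange); bars are 95% counting intervals. The untreated profile reaches 3.29 at Nectin3 and falls to 0.232 beyond Myh15, and the auxin profile stays between 0.438 and 1.88.

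The auxin profile was flatter. The SD of log2 contact over the 54 windows was 0.81 untreated and 0.48 in auxin. Over all baits of the same shape it was 0.74 and 0.51, so auxin values were flatter there too. Of the 54 windows, 38 lay closer to 1 in auxin, a count that has no share over all baits beside it. In auxin 3 windows (5.56%) were at least 1.5 times the expected contact and 13 (24.1%) at most 1/1.5 of it, against 6.98% and 14.8% over all baits. The shape was kept in part, with Pearson's r of 0.77 and Spearman's rho of 0.69 between the matrices, given as a description because neighbouring windows share bins and counts.

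Window by window, 16 of 54 (29.6%) had a contact higher by 1.5-fold or more in auxin, and 5 (9.26%) one lower by as much, against 18.2% and 12.6% over all baits. Requiring also that the interval exclude 0 left 9 higher windows (16.7%, against 6.76%) and 3 lower ones (5.56%, against 4.93%). At the main setting the Dppa2 and Dppa4 bins thus had a larger share of higher windows than the average bait and a share of lower windows near the background. The 16 higher windows became 11 after the pairs were balanced again. They became 12 without the first Dppa4 bin, 12 without the second and 17 without the Dppa2 bin. Shares over all baits are not given for these settings, so whether the excess holds there was not tested. The largest log2 ratios were 1.28 (0.17 to 2.50) at 49.22 to 49.32 Mb and 1.26 (0.70 to 1.84) at 49.02 to 49.12 Mb in the first part of Myh15, where contact went from 0.348 (0.247 to 0.477) to 0.833 (0.672 to 1.02). At 48.92 to 49.02 Mb, with Dzip3 and Cip2a, contact went from 0.669 (0.550 to 0.805) to 1.22 (1.05 to 1.41), a log2 ratio of 0.87 (0.52 to 1.22). The windows from 50.82 Mb (1.16, -0.99 to 3.88) and at 50.02 to 50.12 Mb (0.94, -0.85 to 2.40) also ranked among the 5 highest ratios, but their intervals included 0.

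The lowest ratio was -0.83 (-1.73 to 0.05) at 50.52 to 50.62 Mb, which holds Ccdc54, a coiled-coil protein gene, and its interval included 0. Contact fell at the Nectin3 window (-0.81, -1.20 to -0.42), at the Phldb2 and Plcxd2 window (-0.75, -1.42 to -0.07) and next to Nectin3 at 46.52 to 46.62 Mb (-0.66, -1.27 to -0.06). The Cd96 window had -0.75 (-1.56 to 0.08). By side, 9 of the 11 windows from the left end to 46.62 Mb had a ratio below 0, and 21 of the 22 windows to the right of 48.72 Mb had one above 0. The stretches between were mixed. In the gene-poor stretch from 46.62 to 48.22 Mb, 10 of 16 windows were below 0 and 6 above, 4 of these with an interval above 0. From 48.42 to 48.72 Mb, 2 of 3 windows were below 0. Shares over all baits are not given for these counts by side.

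**Figure D2:**
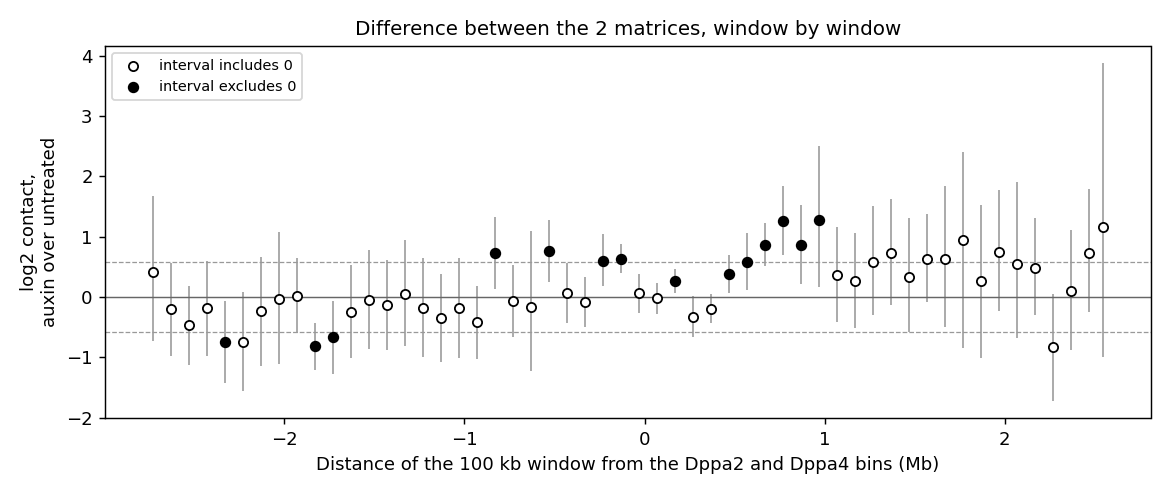
Log2 ratio of auxin over untreated contact of the Dppa2 and Dppa4 bins for each 100 kb window, by distance from the genes in Mb; bars are 95% counting intervals, filled points have an interval that excludes 0 and dashed lines mark 1.5-fold. Filled points below 0 lie on the Nectin3 side (lowest -0.81) and those above 0 lie right of the genes or in the gene-poor stretch left of them (highest 1.28).

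Larger regions gave narrower intervals. Their edges were rounded from domain edges seen earlier in these data, so they support nothing about domains. With the Nectin3 region (45970001 to 46660000, holding also Plcxd2, Cd96 and the predicted gene Gm4737) contact fell from 1.77 (1.58 to 1.98) to 1.21 (1.06 to 1.37), a log2 ratio of -0.55 (-0.80 to -0.31). All 3 bins were lower in auxin: the first Dppa4 bin went from 1.69 to 1.16, the second from 1.48 to 1.14 and the Dppa2 bin from 2.16 to 1.33. The interval of the ratio included 0 for the second Dppa4 bin alone (-0.38, -0.80 to 0.04). The gene-dense left end (45520001 to 45970000) had 1.69 (1.41 to 2.00) and 1.42 (1.19 to 1.67), with a ratio of -0.25 (-0.60 to 0.10).

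With the Myh15 region (49030001 to 49510000) contact rose from 0.317 (0.261 to 0.382) to 0.587 (0.508 to 0.673), a log2 ratio of 0.89 (0.55 to 1.23). The first Dppa4 bin went from 0.384 to 0.543, the second from 0.278 to 0.675 and the Dppa2 bin from 0.291 to 0.541. The region before it (48680001 to 49030000, Trat1 to Cip2a) rose from 0.784 (0.707 to 0.868) to 1.10 (1.01 to 1.20), a ratio of 0.49 (0.30 to 0.68). All 3 bins were higher in auxin in both of these regions, with an interval that included 0 only for the first Dppa4 bin and Myh15 (0.50, -0.01 to 1.03). In the Trat1 to Cip2a region, the interval of auxin contact lay above 1, the average of the data, but included 1 after the pairs were balanced again (1.03, 0.943 to 1.11), without the first Dppa4 bin (1.09, 0.98 to 1.22) and without the Dppa2 bin (1.09, 0.993 to 1.20).

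Beyond Myh15, the region from 49510001 to 49890000 with Ift57 and part of Cd47 rose from 0.446 (0.351 to 0.557) to 0.605 (0.504 to 0.722), a ratio of 0.44 (0.02 to 0.87). The region from 49890001 to 50160000 rose from 0.520 to 0.920, with a ratio of 0.82 (0.05 to 1.59). Without bins under 100 pairs the latter ratio was 0.56 (-0.08 to 1.23), and after the pairs were balanced again the former was 0.32 (-0.15 to 0.80). Leaving out the first Dppa4 bin gave 0.23 (-0.31 to 0.79) for the former and 0.72 (-0.11 to 1.58) for the latter, so neither rise held at every setting. The last region, with Bbx, an HMG-box gene, had 0.796 and 0.959 (0.27, -0.09 to 0.63).

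Close to the genes, contact with the stretch on their left (48070001 to 48240000, no protein-coding gene) rose from 0.661 (0.573 to 0.758) to 0.982 (0.879 to 1.09), a log2 ratio of 0.57 (0.31 to 0.83). The region around the genes themselves (48240001 to 48440000) stood at 1.00 (0.92 to 1.09) untreated and did not differ from that in auxin beyond counting error (log2 ratio 0.00, -0.17 to 0.18). With the Morc1 region (48440001 to 48680000) contact was 1.47 (1.32 to 1.64) and 1.40 (1.30 to 1.5), a ratio of -0.08 (-0.26 to 0.11). After the pairs were balanced again this ratio was -0.34 (-0.62 to -0.06). The gene-poor region between Nectin3 and the genes (46660001 to 48070000) had 0.710 (0.638 to 0.788) and 0.759 (0.706 to 0.815), with a ratio of 0.10 (-0.09 to 0.28), or 0.17 (0.01 to 0.32) without bins under 100 pairs.

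At the resolution of single bins, the highest contact of the genes in either matrix was with the bin that holds the start of Nectin3 (46490001 to 46500000). This bin was singled out after its values were seen. It had 20 pairs where 3.19 were expected untreated, a contact of 6.38 (3.85 to 9.95), and 15 where 3.31 were expected in auxin, 4.77 (2.64 to 7.93). It ranked first in both matrices among bins with at least 3 expected pairs. Of these ranked bins, the 8 at 3 or more untreated all lay at or beside Nectin3, and in auxin this bin was the only one. Bins with fewer expected pairs were not ranked. At the distant left end, the gene bodies of Abhd10 and Tagln3 as wholes had 3.66 and 3.27 untreated. The start bin holds the CG-rich stretch shown above.

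The 9 bins around the start bin had a contact of 3.23 (2.75 to 3.78) untreated and 1.83 (1.47 to 2.26) in auxin, and fell by 0.82 on the log2 scale (-1.21 to -0.43). The start bin itself had a ratio of -0.42 (-1.51 to 0.64). It stood above these neighbours by a log2 ratio of 0.98 (0.22 to 1.67) untreated and 1.38 (0.47 to 2.19) in auxin. With 1 of the 3 Dppa2 and Dppa4 bins left out, the lowest of these values were 0.83 (-0.15 to 1.68) without the second Dppa4 bin untreated and 0.93 (-0.26 to 1.94) without the Dppa2 bin in auxin. Seen from 3 bins shifted by 50 kb, the start bin had an untreated contact of 4.10 (2.04 to 7.35) to the left and 3.48 (1.95 to 5.74) to the right, so high contact with it was not confined to the Dppa2 and Dppa4 bins.

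**Figure D3:**
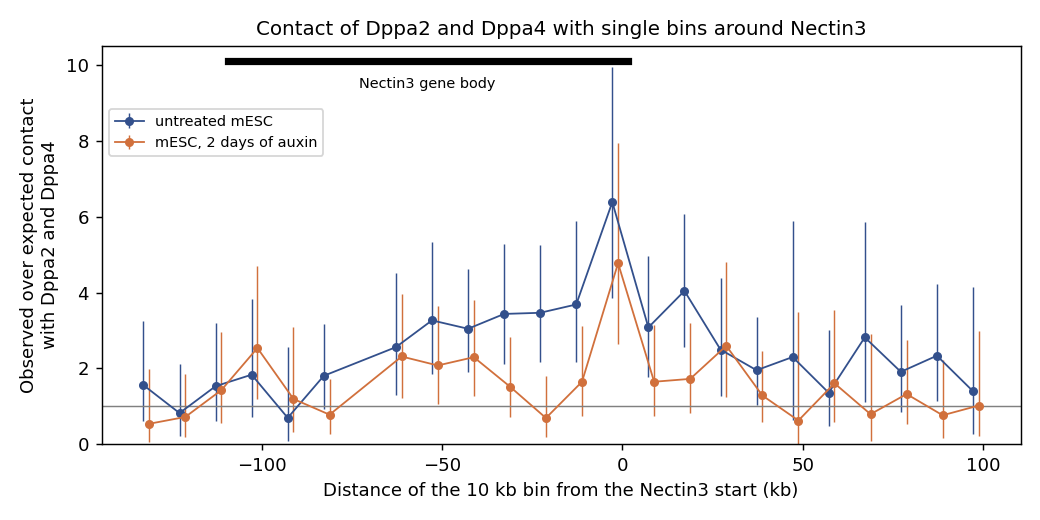
Observed over expected contact of the Dppa2 and Dppa4 bins with single 10 kb bins, by distance of the bin's centre from the Nectin3 start in kb, in untreated mESC (blue) and after 2 days of auxin (orange); bars are 95% counting intervals and the black line is the gene body. 1 bin with under 100 pairs is left out. The start bin stands at 6.38 and 4.77, above every other bin shown in its matrix.

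Inside Morc1, a gene that silences transposons in the male germline, contact was uneven along the gene. The bins starting at 48600001, 48610001 and 48620001, near the right end of the gene, had 2.42 (2.02 to 2.86), 2.05 (1.62 to 2.55) and 2.21 (1.79 to 2.70) untreated and 2.19 (1.82 to 2.62), 2.35 (1.88 to 2.90) and 1.63 (1.27 to 2.06) in auxin. The bins starting at 48440001 and 48450001, nearer to Dppa2, had 0.775 (0.477 to 1.19) and 0.841 (0.607 to 1.14) untreated and 0.977 (0.615 to 1.47) and 1.05 (0.783 to 1.37) in auxin. The first bin of the gene, starting at 48430001, had 1.62 (1.34 to 1.95) and 1.83 (1.52 to 2.17). The bins starting at 48470001, 48480001 and 48490001 had 1.01, 1.51 and 1.58 untreated and 1.71, 1.94 and 2.35 in auxin, so in auxin values as high as at the right end also occurred in the part nearer to Dppa2. These bins were picked after their values were seen.

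The Cip2a start lies in a bin (48990001 to 49000000) that also holds the right end of the Dzip3 gene body. Contact with this bin was 0.995 (0.591 to 1.57) untreated on 19 pairs and 2.04 (1.44 to 2.82) in auxin on 38. At the Myh15 start bin (49050001 to 49060000) it was 0.820 (0.406 to 1.48) on 11 pairs and 0.992 (0.523 to 1.71) on 13. The 250 bases before these starts are those printed above, CG-rich for Cip2a and without CG for Myh15.

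Contact with gene bodies could be measured for the 26 other protein-coding genes of the interval. It was higher by 1.5-fold or more in auxin for 8 and lower for 5, and with an interval that also excluded 0 for 4 and 1. Gm4737 and Gm4802 had 0 pairs in auxin, so they had no ratio and could not be counted. Shares over all baits are not given for these counts or for those by list below. These gene bodies differ in size and distance, so small and distant ones have wide intervals. The highest untreated contacts were with Abhd10 (3.66, 2.32 to 5.48, on 24 pairs), Tagln3, a calponin family gene (3.27, 1.48 to 6.24, on 11 pairs), Nectin3 (2.69, 2.27 to 3.17), Plcxd2 (2.08, 1.35 to 3.05) and Ccdc54 (1.98, 0.928 to 3.70, on 10 pairs). In auxin these stood at 2.23, 2.79, 1.79, 1.26 and 0.650, each lower than untreated, but the interval of the ratio excluded 0 only for Nectin3 (-0.59, -0.98 to -0.21). These genes were named by their untreated value, so a lower auxin value in them is not an independent observation.

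The lowest untreated contacts were with Gm4802, with 0 pairs in both matrices, which untreated allows a contact of up to 1.89, Gm17783 (0.235 on 1 pair), Myh15 (0.276, 0.199 to 0.374), Ift57 (0.292, 0.146 to 0.522) and Gm52257 (0.484, 0.254 to 0.836). Of these, Myh15 rose to 0.682 (0.558 to 0.824), a log2 ratio of 1.30 (0.77 to 1.86), the largest of any gene with at least 10 pairs in both. Ift57 had 0.305 (0.163 to 0.520) in auxin, a ratio of 0.06 (-1.21 to 1.36). The genes with the lowest contact were also named by their untreated value, so a higher auxin value in them is not an independent observation. The other genes that were higher past 1.5-fold with an interval above 0 were Retnlb (1.21, 0.23 to 2.28), Cip2a (0.90, 0.29 to 1.52) and Dzip3 (0.89, 0.51 to 1.28). Cip2a encodes an inhibitor of protein phosphatase 2A and Dzip3 a ubiquitin ligase that binds RNA. All 4 lie between Morc1 and Ift57.

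By list, the 3 genes of the resistin-like list, for small proteins that cells secrete, had higher values in auxin. Retnlb went from 0.518 on 13 pairs to 1.20 on 34. Retnla went from 0.716 on 9 pairs to 1.00 on 14, and Retnlg from 0.888 on 6 to 1.71 on 12. These genes are neighbours inside the Trat1 to Cip2a region, which rose as a whole, so the list cannot be told apart from its position. Only the interval for Retnlb excluded 0, and the list's median log2 ratio was 0.94, against 0.43 over all genes with a ratio. Among the 4 lymphocyte and immune surface genes measured, 2 were higher by 1.5-fold or more and 1 lower, with no interval that excluded 0 past that fold. Trat1, for an adaptor of the T cell receptor, rose by less than 1.5-fold (0.38, 0.04 to 0.71). Cd47, whose product tells phagocytes not to engulf a cell, had 0.65 (-0.22 to 1.55), Cd96 -0.64 (-1.56 to 0.31) and Gcsam, a germinal centre B cell gene, 1.03 (-0.82 to 3.21). Morc1, the only other gene of the germline and early embryo list, had 1.47 (1.31 to 1.64) and 1.44 (1.34 to 1.54), a ratio of -0.03 (-0.22 to 0.16).

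The 2 sides of the genes were then compared at matched distance, which cancels distance decay. Untreated contact to the left was 0.511 (0.413 to 0.631) times that to the right at 100 to 250 kb and 0.460 (0.381 to 0.554) times at 250 to 500 kb. The sides were reversed beyond, at 1.43 (1.12 to 1.82) from 500 to 1000 kb and 2.11 (1.82 to 2.46) from 1000 to 2500 kb. In auxin these 4 values were 0.846 (0.737 to 0.970), 0.578 (0.497 to 0.672), 0.878 (0.755 to 1.02) and 1.20 (1.04 to 1.39). The genes leaned to the right nearby and to the left far away when untreated, and both leanings were smaller in auxin. The log2 changes were 0.73 (0.37 to 1.09), 0.33 (-0.01 to 0.67), -0.70 (-1.11 to -0.30) and -0.81 (-1.11 to -0.51).

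At 20 to 100 kb the ratio was 0.936 (0.825 to 1.06) and 0.889 (0.768 to 1.03), and over all distances it was 0.905 (0.836 to 0.978) and 0.861 (0.808 to 0.917), a smaller lean to the right than at 100 to 500 kb untreated. The leaning to the right nearby was uncommon in the interval. At 100 to 250 kb, 0.415% of baits of the same shape had a lower untreated ratio, and 17.6% did in auxin. At 250 to 500 kb these shares were 0.463% and 2.31%, and at 500 to 1000 kb they were 73.8% and 34.6%. Baits overlap, so these shares describe a position in the interval and are no test.

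**Figure D4:**
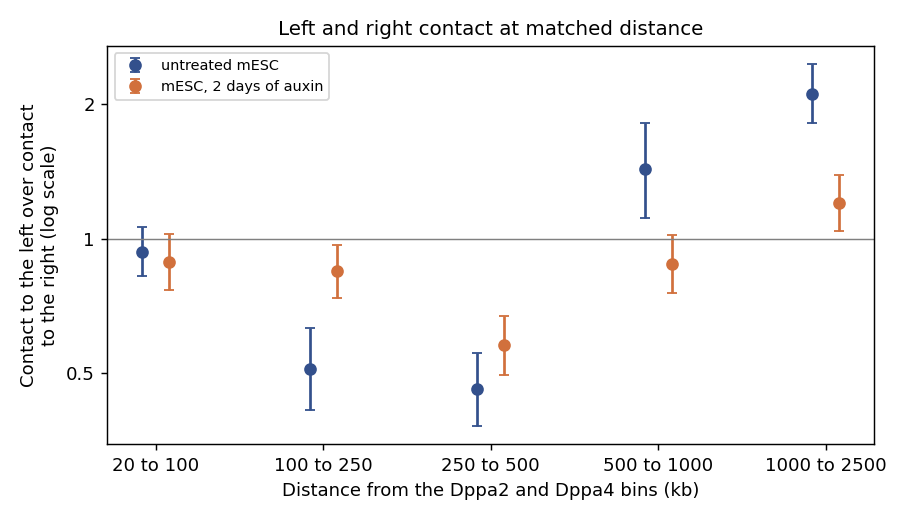
Contact of the Dppa2 and Dppa4 bins to the left over contact to the right at the same distances (log axis) in 5 bands of distance in kb, in untreated mESC (blue) and after 2 days of auxin (orange); bars are 95% counting intervals. The untreated ratio goes from 0.511 and 0.460 at 100 to 500 kb to 2.11 beyond 1000 kb, and the auxin ratio from 0.578 to 1.20.

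The share of contact by distance shifted as well. Untreated, 26.6% (24.9 to 28.3) of the bins' summed contact from 20 kb on lay within 100 kb, against 22.8% (21.6 to 24.2) in auxin. The share at 500 to 1000 kb was 13.9% (12.6 to 15.3) and 18.1% (16.9 to 19.3). Over all bins the share within 100 kb was 23.6% and 21.9%, and at 500 to 1000 kb it was 18.9% and 19.3%. The Dppa2 and Dppa4 bins thus lay below the average at 500 to 1000 kb when untreated and closer to it in auxin. Untreated, they also lay below it at 100 to 250 kb (17.3% against 19.8%) and beyond 2500 kb (1.71% against 3.53%). They lay above it at 250 to 500 kb (21.8% against 18.8%) and at 1000 to 2500 kb (18.6% against 15.5%). All bins include those near the ends of the interval, which reach other distances, so these shares are not matched for position.

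Dppa2 and Dppa4 had like profiles untreated and less like ones in auxin. Over the 11 regions, the untreated contact of the Dppa2 bin was higher than that of the Dppa4 bins, with an interval that excluded 0, in 2 and lower in 0. These were the left end (2.18 against 1.45, a log2 ratio of 0.58, 0.04 to 1.11) and the Nectin3 region (2.16 against 1.58, 0.44, 0.09 to 0.79). In auxin the Dppa2 bin was higher in 1 region, the gene-poor one (0.870 against 0.706, 0.30, 0.07 to 0.53), and lower in 1, from 49510001 to 49890000 (0.435 against 0.693, -0.67, -1.34 to -0.05). Across 53 windows, Pearson's r between the profiles of the 3 bins was 0.76 to 0.79 untreated and 0.31 to 0.53 in auxin, as a description, since the bins share windows and depth. For the bin between the genes, r with these 3 bins was 0.69 to 0.76 untreated and 0.38 to 0.56 in auxin. The likeness was thus not confined to the gene bins.

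The profile was shared with the bins around the genes to different degrees for the 2 sides. When the 3 bins were shifted in steps of 50 kb, untreated contact with the Nectin3 region was 1.97 (1.75 to 2.22) from 50 kb to the left and 2.11 (1.90 to 2.34) from 50 kb to the right, against 1.77 at the genes. The genes were below the right neighbour by a log2 ratio of -0.25 (-0.47 to -0.03) and did not differ from the left one beyond counting error (-0.15, -0.39 to 0.08). Contact with the Nectin3 region was therefore not highest at the genes. From 300 kb to the right it was lower than at the genes, at 1.32 (0.42, 0.14 to 0.71). The fall in auxin was not particular to the genes either. Log2 ratios of auxin over untreated contact were -0.67 (-0.92 to -0.42) from 50 kb and -0.73 (-0.96 to -0.50) from 100 kb to the left. From 50 kb to the right the ratio was -0.50 (-1.18 to 0.10). Only the shift of 250 kb to the right had a ratio above 0 (0.41, -0.64 to 1.43).

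Untreated contact with the Myh15 region was lower at the genes than at the nearest shifted bins, with 0.317 against 0.472 (0.394 to 0.560) from 50 kb to the left and 0.438 (0.376 to 0.506) from 50 kb to the right. The log2 ratios of the genes over these were -0.57 (-0.95 to -0.20) and -0.46 (-0.82 to -0.12), and over the bins 100 kb to the left -0.88 (-1.23 to -0.54). From 100 to 300 kb to the right the shifted bins had 0.302 to 0.331, and none of these 5 differed from the genes beyond counting error. In auxin the genes differed from the bins 100 kb to the left (-0.38, -0.65 to -0.11), and not from those 50 kb to the left (-0.25, -0.56 to 0.05) or 50 kb to the right (0.05, -0.22 to 0.32) beyond counting error. They were also lower than the bins 250 kb (-0.89, -1.24 to -0.54) and 300 kb to the left (-0.70, -1.02 to -0.38), and higher than those 300 kb to the right (0.40, 0.10 to 0.70). The intervals for the other auxin shifts included 0. The rise in auxin with this region was not particular to the genes. As a log2 ratio the rise was 0.57 (0.23 to 0.91) from 50 kb to the left, against 0.89 at the genes. From 50 kb to the right it was 0.37 (0.09 to 0.65). Only the shift of 200 kb to the left had a ratio below 0 (-0.19), and its interval included 0. The intervals for 100 and 250 kb to the right included 0 as well. Whether the rise differed in size between the genes and the shifted bins was not tested. Some of the shifted sets hold bins with few pairs, and their intervals are wide.

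**Figure D5:**
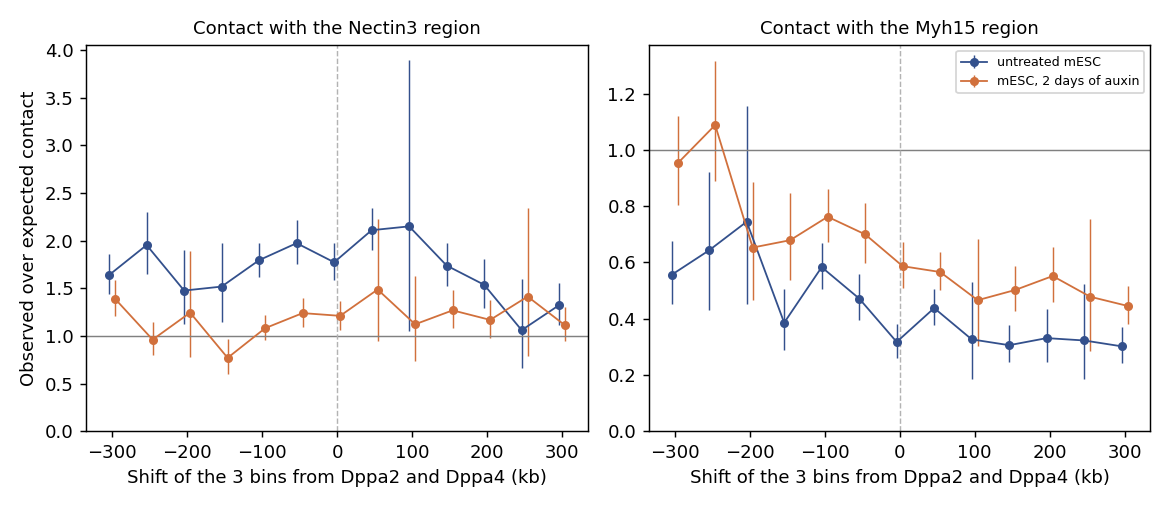
Observed over expected contact of 3 bins of the same shape with the Nectin3 region (left) and the Myh15 region (right), by shift of the bins from Dppa2 and Dppa4 in kb (0, dashed line, is the genes), in untreated mESC (blue) and after 2 days of auxin (orange); bars are 95% counting intervals. At the genes untreated contact is 1.77 with the Nectin3 region and 0.317 with the Myh15 region, and in auxin 1.21 and 0.587.

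Among the 18 genes with enough pairs, Morc1 had the untreated profile most like that of Dppa2 and Dppa4 across the 100 kb windows, with Pearson's r of 0.93 over 49 windows. Cip2a followed with 0.63 and Trat1 with 0.57, over 52 windows each. The least like were Slc9c1, a gene for a sperm sodium and proton exchanger (-0.28), Phldb2 (-0.12) and BC016579 (-0.12). In auxin Morc1 was again first with 0.76, while Cip2a had 0.44 and Trat1 0.21. Next after Morc1 in auxin were Dzip3 (0.58) and Nectin3 (0.47), of which Nectin3 had 0.11 untreated. The 3 genes most like untreated all lie between Dppa2 and Myh15, which did not hold for the first 3 in auxin. The windows and their read depth are shared between profiles, so no p is given.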

How the data were processed

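Capture Hi-C was measured in 2 pooled matrices. The deposited values are a balanced contact signal for pairs of 10 kb bins; that replicates were combined and the values iteratively corrected by the authors is read from the deposited names. Values are not scaled to depth. The submitters' processing notes list mm10 and Trim Galore; the sources used here do not name the aligner, the read filters or the balancing tool. MboI cut the chromatin and RNA baits captured the interval, per the labels' protocols. The position that heads each bin was taken as its start.

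Read pairs were recovered with a factor for each bin, and 100% of values came within 0.02 of a whole number of pairs. Where all counts of a bin shared a divisor they were divided by it, so each bin holds the fewest pairs that its values allow. A gain in some pairs of bins lowers the observed over expected contact of others at that distance. Windows needed at least 10 expected pairs in both matrices. The 95% intervals are exact Poisson for 1 matrix and exact binomial (Clopper-Pearson) for a ratio, on the effective number of pairs; pairs copied from 1 molecule by PCR are not independent. Recovery and intervals were tested on simulated data. Python 3.11.15, NumPy 2.4.6, SciPy 1.17.1 and pandas 2.3.3 were used.

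The rule for named items took every protein-coding gene of the interval in counts, with values for the 5 highest and 5 lowest untreated contacts and those past 1.5-fold with an interval excluding 0; the 5 highest, lowest, most raised and most lowered windows; and the 3 genes most and least like in profile, which needed 1000 pairs and 30 windows. The members, regions and gene lists were chosen with earlier results of these data known. Gene positions came from RefSeq GRCm38.p6. The 14 labelled samples were not analysed here, since neither matrix carries one of their labels. Alternatives were another minimum distance, recovered pairs in place of balanced values, sparse bins left out, smoothed expectation, renewed balancing, each bin left out, and shifted or 50 kb windows; those for the Nectin3 start bin were chosen after seeing the data.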

Additional observations from a re-analysis of the deposited data

How the results depend on the processing

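Over 64 results and their alternatives, all but 32 values stayed inside the counting interval or, for counts, within 1.5 times. Some values with a main interval that included 0 changed sign. The Morc1 region ratio was 0.05 (-0.10 to 0.19) without sparse bins. After renewed balancing the gene-poor region had -0.02, and the log2 change of the left over right ratio over all distances was 0.04. The likeness of BC016579 and Phldb2, both -0.12 untreated, was 0.26 and 0.19 in auxin. Windows of 50 kb, which are more numerous, gave 14 high and 41 low untreated, 7 high and 29 low in auxin, and 35 higher and 16 lower in auxin than untreated. These counts have no share over all baits beside them and cannot be set against the counts of 100 kb windows. The untreated left over right ratio over all distances was 0.825 after renewed balancing, 0.997 without the first Dppa4 bin and 0.809 without the Dppa2 bin. The log2 ratio for the Morc1 region was -0.34 after renewed balancing; the cause was not tested for either. The fall with the Nectin3 region (-0.62 to -0.46) and the rises with the Trat1 to Cip2a region (0.36 to 0.54) and the Myh15 region (0.69 to 1.09) kept an interval that excluded 0 under all alternatives run. No paired analysis was possible because each condition has 1 pooled matrix without replicate numbers. Depth limits single bins and distant windows most, where few pairs give wide intervals.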

Other observations

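The bin between the second Dppa4 bin and the Dppa2 bin holds neither gene body. It was left out of the values of the genes above, and only its contact with the first Dppa4 bin and the correlation of its profile were given. Its contact with the Nectin3 region was 1.71 (1.36 to 2.13) untreated and 1.10 (0.853 to 1.39) in auxin, a log2 ratio of -0.64 (-1.13 to -0.16), and with the Morc1 region 1.61 (1.33 to 1.93) and 1.51 (1.24 to 1.82). With the gene-poor region between Nectin3 and the genes it rose from 0.609 (0.522 to 0.707) to 0.881 (0.780 to 0.991), a ratio of 0.53 (0.25 to 0.81). With the stretch left of the genes (48070001 to 48240000) it had 0.760 (0.557 to 1.01) and 0.764 (0.646 to 0.897). For the Myh15 region the ratio was 0.45 (-0.16 to 1.07). Whether these ratios differ from those of the Dppa2 and Dppa4 bins was not tested.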
